A study of Mus musculus with 27 samples.

Results

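Otx2, Pou3f1, Sox1, Sox2 and Sox3 encode transcription factors of early embryonic and neural cells, and DNA methylation was examined here over these 5 genes and over the 20 kb on either side of each. The members were taken by name, and every window of the deposited table that overlapped a gene body on GRCm38, or its flanks, was kept. A window is named as holding 100 CpGs and has a median length of 5058 bp. The rule gave 98 of 453245 windows, 30 of them on a gene and 68 in the flanks, and 96 of these had a value in every library and could be tested. Gene windows numbered 7 for Otx2, 6 for Pou3f1, 7 for Sox1, 4 for Sox2 and 6 for Sox3. On Sox3, 2 of the 6 lacked a value in a TET_WT library of D2, so its gene mean rests on the other 4.

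Whole-genome bisulfite sequencing was done on mouse embryonic stem cells (ESC, D0, cultured in 2i/Lif) and on epiblast-like cells (EpiLC) made from them, on D1 and D2. The genotypes are TET1/2/3_KO (here TET_KO), which lacks the 3 TET enzymes that oxidise methylated cytosine, DNMT_WT, the wild-type parental line of a Dnmt1, Dnmt3a and Dnmt3b knockout that was not analysed here, and TET_WT, the wild-type parental line of TET_KO. There were 3 libraries for each genotype and day, 27 in 9 groups. The labels state neither that the libraries of a group came from separate cultures nor whether TET_KO is a single clone, so the spread behind the p-values is that between libraries and may be technical. Methylation holds no transcript levels, so the cells are called by their labels, and bisulfite sequencing does not separate methylated from hydroxymethylated cytosine.

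Otx2 is a paired-type homeodomain protein that takes part in the move of pluripotent cells out of the naive state and later in forebrain formation. Pou3f1, also known as Oct6, is a POU-domain protein of the epiblast and of early neural cells. Sox1, Sox2 and Sox3 form the SoxB1 family, whose members bind DNA through an HMG box. Sox2 maintains pluripotency with Pou5f1, and all 3 mark neural progenitors. CpG-rich starts of such developmental genes are commonly free of methylation, and TET enzymes and the DNMT3 methyltransferases act against each other at the borders of such stretches.

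The CpG content before the gene starts differed between the members, as the 250 bases before 3 starts show. These are shown because a window spans a fixed number of CpGs, so CpG-dense sequence falls into short windows. They come from RefSeq on GRCm38.p6, in which 3 of the 5 members had an entry, and are written 5′ to 3′ on the strand of the gene with each CpG in capitals. Sox2 lies at chr3:34649995-34652461, Sox1 at chr8:12395519-12399555 and Otx2 at chr14:48656781-48667644.
Sox2, chr3:34649745-34649994, plus strand: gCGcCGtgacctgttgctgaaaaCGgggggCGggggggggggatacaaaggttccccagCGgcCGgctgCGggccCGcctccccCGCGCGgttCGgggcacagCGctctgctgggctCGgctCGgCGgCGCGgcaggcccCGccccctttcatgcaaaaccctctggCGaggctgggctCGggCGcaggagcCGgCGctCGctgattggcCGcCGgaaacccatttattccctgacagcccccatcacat
Sox1, chr8:12395269-12395518, plus strand: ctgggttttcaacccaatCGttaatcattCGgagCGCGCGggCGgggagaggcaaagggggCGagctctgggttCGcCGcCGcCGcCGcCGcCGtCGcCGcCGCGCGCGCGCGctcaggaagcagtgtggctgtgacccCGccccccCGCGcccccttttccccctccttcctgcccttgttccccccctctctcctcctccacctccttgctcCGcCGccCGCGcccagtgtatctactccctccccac
Otx2, chr14:48667645-48667894, minus strand, before the outermost start: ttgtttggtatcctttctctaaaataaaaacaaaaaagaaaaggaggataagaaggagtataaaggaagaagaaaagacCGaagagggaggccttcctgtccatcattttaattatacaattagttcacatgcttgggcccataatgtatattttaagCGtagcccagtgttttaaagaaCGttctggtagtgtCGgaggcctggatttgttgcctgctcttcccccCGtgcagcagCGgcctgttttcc
The Sox2 sequence holds 27 CpGs, a number reached by 8.56% of 32851 promoters. The Sox1 sequence holds 29, reached by 6.78%. The sequence before the outermost Otx2 start holds 6, the median of all promoters and reached by 50.4% of them. The 250 bases before the inner Otx2 starts at positions 48667508, 48665109 and 48662734 hold 8, 14 and 9, reached by 43.0, 29.4 and 40.3%. At least 1 CpG stood in 92.1% of all promoters. The CpG was searched as CG, which reads the same on both strands.

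Methylation over all windows was higher on each later day and highest in TET_KO. The medians of the TET_KO libraries lay between 54.7 and 57.0% on D0, 63.6 and 64.8% on D1 and 75.4 and 77.9% on D2. Those of DNMT_WT were 2.29 to 2.39%, 12.4 to 12.9% and 52.6 to 53.5%, and those of TET_WT 24.7 to 25.6%, 31.6 to 34.8% and 53.8 to 59.4%. The mean difference of library medians, TET_KO minus TET_WT, came to 30.4 points for D0, 30.3 for D1 and 20.7 for D2, and DNMT_WT minus TET_WT was -22.9, -21.0 and -2.97 points. Differences below are percentage points of methylation as deposited, and values said to be relative to the library medians come from libraries each centred on its own median. Centring takes the shift of the medians off each difference, also where both groups lie near 0%. There the centred value is close to the shift with its sign turned, and its call follows from the centring. The depth of the libraries is unknown. Tests used limma over all 27 libraries with Benjamini-Hochberg adjustment over all 444250 windows or 48637 genes, and a feature was called where the adjusted p was under 0.05 and the values lay at least 10 points apart.

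The 5 genes lay in methylation valleys, seen in all 3 genotypes but not in DNMT_WT on D0, where the flanks were low as well. Of the 28 tested gene windows, 20, 21 and 20 had a group mean under 5% in TET_KO on D0, D1 and D2, 28, 25 and 22 did in DNMT_WT, and 24, 23 and 23 did in TET_WT. Over all windows the share under 5% was 3.95, 3.81 and 3.43% in TET_KO, 83.6, 20.3 and 3.66% in DNMT_WT and 6.60, 5.46 and 4.07% in TET_WT. The flanks of the same genes were methylated more, with 10, 8 and 7 of 68 windows under 5% in TET_KO, 66, 22 and 9 in DNMT_WT and 24, 18 and 13 in TET_WT. The median gene window had 0.717, 0.802 and 1.16% in TET_KO, against 38.0, 42.7 and 53.3% for the median flank window. In TET_WT the median gene window had 0.282, 0.323 and 0.535% and the median flank window 8.28, 14.9 and 28.5%. In DNMT_WT on D0 both were low, at 0.320 and 1.45%.

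**Figure D1:**
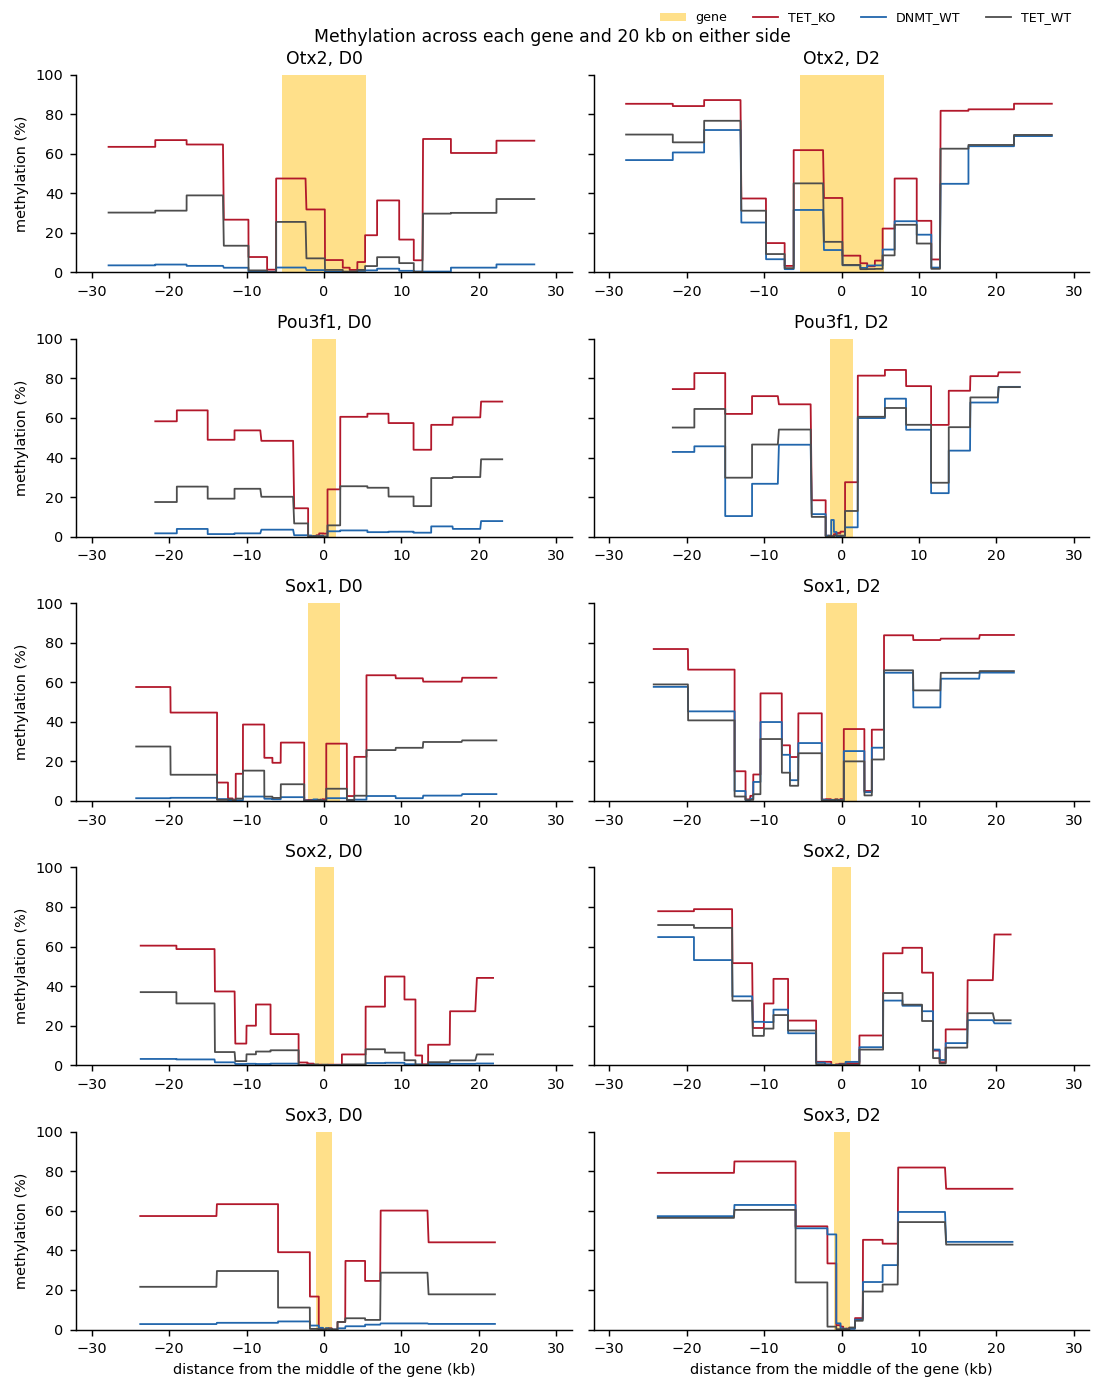
Mean methylation (%) of each window against its distance from the middle of the gene (kb), for D0 on the left and D2 on the right, with TET_KO in red, DNMT_WT in blue and TET_WT in grey and the gene shaded. The lines of all 3 genotypes reach near 0 within each gene apart from methylated end windows and, in Otx2, the window next to its lower-coordinate end. On D0 the DNMT_WT line is low in the flanks too. TET_KO as deposited lies above TET_WT in the flanks on both days, by less than the shift in library medians in many windows.

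Under 5% in all 9 groups were 19 of the 28 gene windows, all 4 of Sox2, 6 of 7 of Sox1, 4 of 6 of Pou3f1, 3 of 4 of Sox3 and 2 of 7 of Otx2. In the flanks 7 of 68 windows were so, 3 of Sox2, 2 of Sox1, 1 of Otx2 and 1 of Pou3f1. The order of the gene means in TET_WT on D2 was Otx2 with 11.1% ± 0.858, Sox1 with 3.14% ± 0.307, Pou3f1 with 2.54% ± 0.308, Sox3 with 0.672% ± 0.308 and Sox2 with 0.175% ± 0.0223 (SD, n = 3 each). Sox1 and Pou3f1 overlapped, with libraries of 2.79 to 3.39% and 2.3 to 2.88%, and the other neighbours in this order did not. The median of all gene means in that group was 51.2%. Of all genes, 0.076% had a lower mean than Sox2 there, and 2.40% had a lower mean than Otx2.

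Otx2, the homeodomain gene, had a split body. Its gene mean was 16.2, 15.3 and 17.0% in the TET_KO libraries of D0, against 5.81, 5.02 and 6.03% in those of TET_WT. On D2 it was 20.9, 20.2 and 20.6% in TET_KO, against 11.5, 11.8 and 10.2% in TET_WT. The groups did not overlap on either day. The difference was 10.56 ± 0.55 points on D0 (SE, limma adjusted p = 1.8e-15) and 9.40 ± 0.55 on D2 (adjusted p = 7.5e-14), but -19.81 and -11.34 points relative to the library medians.

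The methylation of Otx2 came mostly from the window at its lower-coordinate end, the adjoining window inside the gene and the window at its outermost start. The window at the lower-coordinate end, chr14:48656026-48659819, where the gene ends on its minus strand, had 47.9, 45.6 and 49.0% in TET_KO on D0, against 25.4, 23.2 and 28.0% in TET_WT, a difference of 21.93 ± 2.01 points (SE, limma adjusted p = 2.7e-11). The adjoining window, chr14:48659938-48662310, had 31.6, 29.9 and 33.9% in TET_KO and 8.48, 6.77 and 6.09% in TET_WT, a difference of 24.71 ± 1.42 points (limma adjusted p = 2.7e-15). Relative to the library medians these differences were -8.44 and -5.66 points. Further in, the windows chr14:48664632-48665520 and chr14:48665521-48666502 had group means of at most 4.65% in the 9 groups. The window at the outermost start, chr14:48667512-48669061, holds 133 bp of the gene and had 18.5, 17.0 and 20.9% in TET_KO on D0, against 3.05, 2.3 and 4.30% in TET_WT, a difference of 15.58 ± 1.05 points (limma adjusted p = 4.7e-14) or -14.80 points relative to the library medians. All 3 windows differed on D2 too, by 16.79 ± 2.01, 22.17 ± 1.42 and 13.54 ± 1.05 points (limma adjusted p = 1.1e-08, 5.1e-14 and 2.3e-12), of which the middle value alone exceeded the shift of 20.7 points. On D2 the window at the lower-coordinate end had 33.7, 26.8 and 34.2% in DNMT_WT, below the 46.4, 47.8 and 40.8% of TET_WT, by 13.44 points (difference -13.44 ± 2.01, limma adjusted p = 9.4e-06).

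Pou3f1, the POU-domain gene at chr4:124657646-124660655, had a methylated window at its upper-coordinate end only. That window, chr4:124659598-124661232, had 20.5, 24.0 and 27.2% in TET_KO on D0, against 4.83, 4.10 and 8.30% in TET_WT. On D2 it had 26.6, 28.1 and 27.9% in TET_KO, against 14.9, 12.9 and 11.2% in TET_WT. The groups did not overlap, and the differences were 18.19 ± 1.22 and 14.54 ± 1.22 points (SE, limma adjusted p = 4.5e-14 and 1.2e-11), or -12.19 and -6.20 relative to the library medians. The other 5 gene windows had group means of at most 2.57% in TET_KO and TET_WT. In DNMT_WT on D2 the window chr4:124657812-124658145 had 23.9% in replicate 1 but 1.04 and 0.417% in the other 2 libraries, so that the gene mean there was 6.22, 1.11 and 0.962%. Its gene mean otherwise was 4.72% ± 0.765 in TET_KO and 1.12% ± 0.376 in TET_WT on D0 (SD, n = 3 each), a difference of 3.60 ± 0.79 points (limma adjusted p = 1.3e-04), or -26.77 relative to the library medians.

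Sox2, the SoxB1 gene of pluripotency, carried almost no methylation in any library. Its gene mean was 0.264, 0.223 and 0.160% in TET_KO on D0, against 0.125, 0.400 and 0.0875% in TET_WT, and the groups overlapped. The difference was 0.01 ± 0.22 points (SE, limma adjusted p = 0.96). On D2 the libraries had 0.530, 0.589 and 0.665% in TET_KO, 0.725, 0.742 and 0.408% in DNMT_WT and 0.170, 0.199 and 0.155% in TET_WT. TET_KO did not overlap TET_WT on D2, with a difference of 0.42 ± 0.22 points that missed the threshold (limma adjusted p = 0.075) but passed it on a logit scale (limma adjusted p = 0.0036). Nor did DNMT_WT overlap TET_WT, with a difference of 0.45 ± 0.22 points. It also missed the threshold (limma adjusted p = 0.109) and passed it on a logit scale (limma adjusted p = 0.014). The highest group mean of any Sox2 gene window was 1.72%, in DNMT_WT on D2. Relative to the library medians the differences of TET_KO from TET_WT were -30.36 points on D0 and -20.31 on D2, and that of DNMT_WT on D2 was 3.42. The next window on the upper-coordinate side, beginning at position 34653533, had 16.7, 14.8 and 13.6% in TET_KO on D2, 9.38, 10.0 and 7.96% in DNMT_WT and 9.60, 5.71 and 8.46% in TET_WT. Sox2ot, a long noncoding RNA gene, overlaps Sox2, so these windows belong to both.

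Sox1, the SoxB1 gene most specific to neural cells, had methylation in its last window only. That window at the 3′ side, chr8:12397823-12400478, had 26.4, 29.3 and 31.3% in TET_KO on D0, against 6.54, 6.87 and 5.18% in TET_WT. On D2 it had 34.5, 37.1 and 37.4% in TET_KO, 22.8, 23.0 and 29.9% in DNMT_WT and 21.1, 22.1 and 16.9% in TET_WT. TET_KO stood above TET_WT with no overlap, by 22.78 ± 1.62 points on D0 and 16.33 ± 1.62 on D2 (SE, limma adjusted p = 1.4e-13 and 3.1e-10), or -7.60 and -4.40 relative to the library medians. In TET_WT the window rose between D1 and D2, to the D2 values above, against 6.11, 7.13 and 7.98% on D1, by 12.95 ± 1.62 points (limma adjusted p = 1.9e-08), or -9.45 relative to the library medians. The other 6 windows had group means of at most 1.07% in all 9 groups. Sox1ot overlaps the gene and shares its windows.

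Sox3, the SoxB1 gene on the X chromosome (chrX:60891366-60893430), had the member window that differed most between the wild-type lines. It is the window over the lower-coordinate end, chrX:60890574-60891712, of whose 1139 bp the gene covers 347. On D2 it had 28.5, 37.1 and 34.6% in TET_KO, 52.7, 42.6 and 48.9% in DNMT_WT and 0.344, 1.56 and 2.50% in TET_WT. Neither group overlapped TET_WT. DNMT_WT exceeded TET_WT by 46.60 ± 1.90 points (SE, limma adjusted p = 1.0e-15) and TET_KO exceeded TET_WT by 31.94 ± 1.90 (limma adjusted p = 1.2e-14), both beyond the shifts of the library medians. On D0 it had 16.5, 16.6 and 17.0% in TET_KO, 0.805, 2.60 and 2.65% in DNMT_WT and 0, 0 and 1.00% in TET_WT. The D0 difference of TET_KO from TET_WT was 16.33 ± 1.90 points (limma adjusted p = 3.5e-09), or -14.05 relative to the library medians. On D1 the libraries had between 20 and 21.8% in TET_KO, 15.1, 14.1 and 7.99% in DNMT_WT and 0.521, 0.765 and 1.11% in TET_WT. TET_WT was thus the sole genotype in which this window stayed under 5% on all 3 days.

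**Figure D2:**
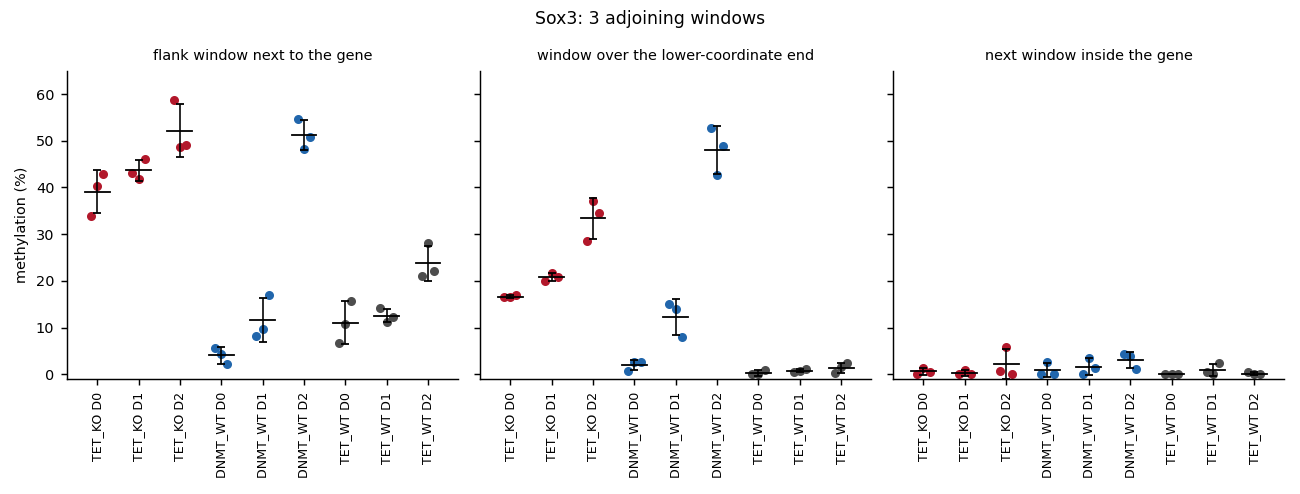
Methylation (%) of 3 adjoining Sox3 windows in each library (points) with group mean ± SD (n = 3), by genotype and day. In the middle panel, the window at the lower-coordinate end of the gene, the D2 libraries of TET_KO (28.5 to 37.1%) and DNMT_WT (42.6 to 52.7%) stand apart from those of TET_WT (0.344 to 2.50%).

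The neighbours of this Sox3 window placed the difference at the edge of the valley. The flank window on its outer side, starting at position 60886457, had group means of 52.2% in TET_KO, 51.2% in DNMT_WT and 23.8% in TET_WT on D2. The next window inside the gene, chrX:60891713-60892259, had 2.20, 3.13 and 0.195% in the same groups. In TET_WT the end window was thus as low as the inside of the gene, in DNMT_WT it was close to its flank, and in TET_KO it lay between both. Among all 444250 windows, 9 had a difference of DNMT_WT from TET_WT on D2 at least as large, and of the 18560 on the X chromosome this was the only window among them. Of 18069 windows under 5% in TET_WT on D2, 12 had at least 30% in TET_KO, 3 had at least 40% in DNMT_WT, and 2 had both. The median DNMT_WT level of these windows was 0.753%. The limits of 5, 30 and 40% were chosen after the values had been seen, and these counts are a description with no test. The median difference of DNMT_WT from TET_WT on D2 was -5.00 points on the X chromosome and -2.64 elsewhere.

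Between TET_KO and TET_WT the flanks differed far more than the genes. Between TET_KO and TET_WT on D0, 6 of 28 gene windows and 50 of 68 flank windows were called higher in TET_KO, where 92.9% of all windows were, and 0 were called lower. The gene windows were 3 of 7 of Otx2 and 1 each of Pou3f1, Sox1 and Sox3, with 0 of 4 on Sox2. The flank windows were 9 of 12 of Otx2, 12 of 14 of Pou3f1, 12 of 16 of Sox1, 10 of 18 of Sox2 and 7 of 8 of Sox3. The median difference was 0.59 points over the gene windows, from -0.34 to 24.71, against 26.58 over the flank windows, from 0.01 to 40.79, and 27.53 over all windows. On D1, 6 gene and 50 flank windows were called higher, where 92.6% of all windows were. On D2, 6 and 46 were, where 84.3% of all windows were, with median differences of 0.78 points over the genes, 16.99 over the flanks and 17.90 over all windows. The gene windows thus fell short of the series-wide share on each day, and so did the flank windows by less. With windows assigned by midpoint, 4 gene windows were called higher on each of D0, D1 and D2, with 52, 52 and 48 flank windows. Relative to the library medians 25 gene and 27 flank windows were called on D0, all of them lower in TET_KO but 1 flank window. Most gene windows lay under 5% in both groups, so their calls follow from the subtracted shift of 30.4 points.

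The flank window with the largest difference differed by a like amount for each gene. It was chr4:124637355-124640137 for Pou3f1, with 61.0, 57.0 and 57.0% in TET_KO on D0 against 19.5, 15.8 and 17.3% in TET_WT, a difference of 40.79 points. For Sox2 it was chr3:34670965-34673056, with 43.2, 43.6 and 45.6% in TET_KO against 4.63, 5.57 and 6.25% in TET_WT, a difference of 38.66 points. The libraries of TET_KO did not overlap those of TET_WT in either window. For Sox1, Otx2 and Sox3 the largest differences were 37.82, 37.71 and 35.76 points. Set against the library medians, the differences were 10.42 points for Pou3f1, 8.29 for Sox2, 7.44 for Sox1, 7.34 for Otx2 and 5.39 for Sox3, so that Pou3f1 alone stayed past 10 points. These windows were picked for their size, so they are a description.

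As means, the genes and flanks showed the same split. On D0 the gene means of 4 members were higher in TET_KO at an adjusted p under 0.05, with Sox2 the exception, where 99.3% of all genes were, and 1 member, Otx2, passed 10 points, where 96.1% of all genes did. Weighting windows by the bases that overlap the gene took Sox1 to 10.03 and Pou3f1 to 7.07 points. The differences were 10.56 for Otx2, 4.29 ± 0.63 for Sox3 (SE, limma adjusted p = 6.1e-07), 3.62 ± 0.34 for Sox1 (limma adjusted p = 1.8e-10), 3.60 for Pou3f1 and 0.01 points for Sox2. All 5 were lower relative to the library medians, with differences of -19.81 to -30.36 points. On D2, 4 members were higher at any size, where 98.7% of all genes were, and 0 passed 10 points, where 87.5% did; Sox3 differed by 8.52 ± 0.63 points (limma adjusted p = 4.9e-12) and Sox1 by 2.69 ± 0.34 (limma adjusted p = 5.2e-08), or -12.21 and -18.05 relative to the library medians. With the weighted means Otx2 passed 10 points on D2, at 11.62, and Sox1 and Pou3f1 were at 7.26 and 5.90.

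All 5 flank means were called higher in TET_KO on D0, where 99.4% of all genes were. The Pou3f1 flank had 49.8% ± 0.536 in TET_KO and 21.3% ± 0.954 in TET_WT (SD, n = 3 each), a difference of 28.50 ± 1.19 points (SE, limma adjusted p = 1.2e-21), or -1.87 relative to the library medians. The Sox2 flank, the lowest, had 24.3% ± 1.14 in TET_KO and 6.92% ± 0.264 in TET_WT, a difference of 17.33 ± 0.76 points (limma adjusted p = 4.2e-21), or -13.05 relative to the library medians. The flanks of Sox3, Otx2 and Sox1 differed by 25.48, 21.64 and 20.14 points, or -4.89, -8.73 and -10.24 relative to the library medians. On D2 all 5 were called again, where 95.1% of all genes were, by 22.44 ± 1.19 points for Sox3 and by 12.48 to 17.23 points for the others. Relative to the library medians the Sox3 flank differed by 1.70 points on D2 and missed the threshold (limma adjusted p = 0.063), and the other 4 differed by -3.50 to -8.26 points.

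**Figure D3:**
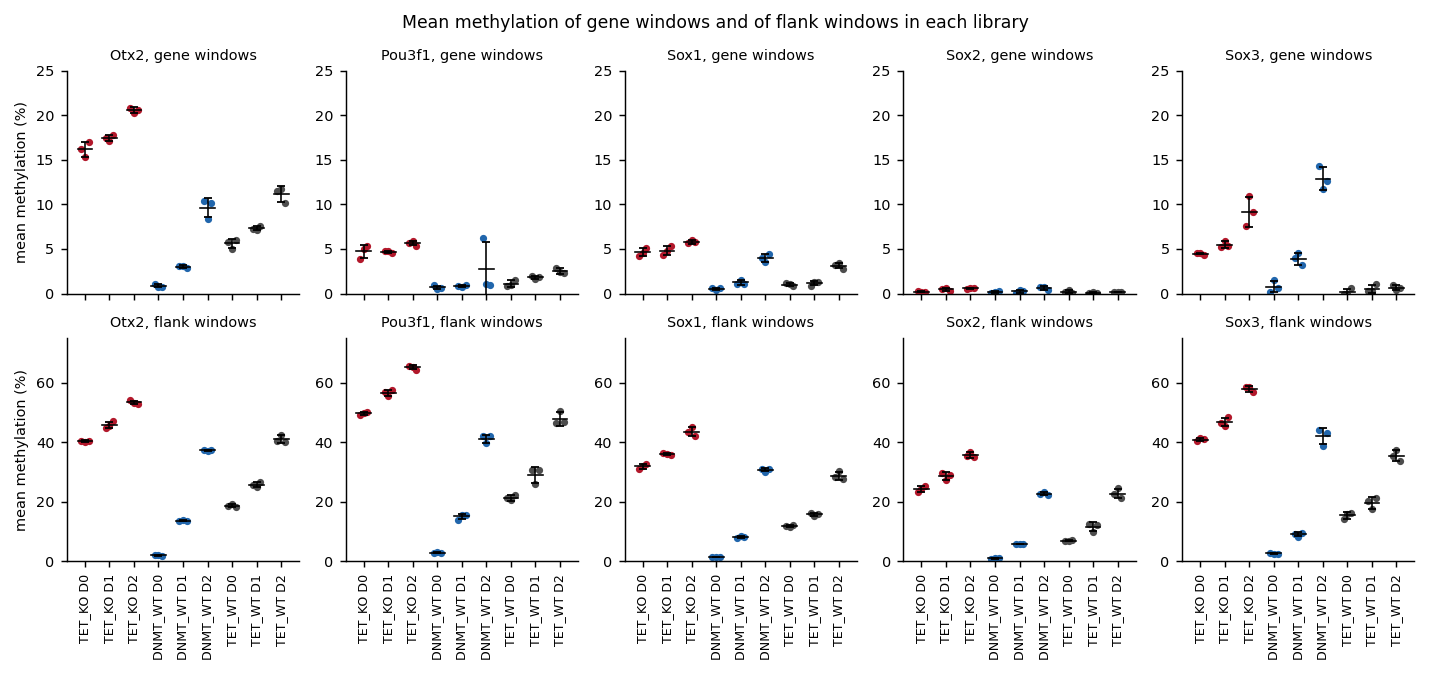
Mean methylation (%) of the gene windows (top row) and flank windows (bottom row) of each member by genotype and day, with each library as a point and the group mean ± SD (n = 3) as a bar. In every flank TET_KO as deposited lies above TET_WT on each day (below it relative to the library medians on D0), while the Sox2 gene mean stays under 1% in all 27 libraries.

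The flanks were not alike on their sides. In TET_KO on D0 the upper-coordinate flank of Sox1 had 45.5% ± 1.46 and the lower 23.7% ± 0.738, and that of Pou3f1 had 58.5% ± 1.58 and 41.2% ± 1.52 (SD, n = 3 each). For Sox3 the lower side was the more methylated, with 53.3% ± 3.23 against 33.5% ± 1.88. The upper flank of Sox2 had 22.3% ± 1.34 in TET_KO and 3.04% ± 0.468 in TET_WT on D0, the lowest flank side of the 5 genes in TET_WT. Short low windows also stood inside flanks, such as chr14:48673800-48674915 beside Otx2, with group means of 6.14, 6.53 and 6.56% in TET_KO on D0, D1 and D2 and of 0.278, 1.15 and 1.83% in TET_WT.

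Across the days, the gene windows gained little while the flanks gained. Between D1 and D0, 0 gene and 7 flank windows were called higher on D1 in TET_KO, where 20.1% of all windows were, 1 and 25 were in DNMT_WT, where 49.0% were, and 0 and 16 were in TET_WT, where 27.6% were. Leaving out replicate 3 of D0 or replicate 2 of D1 took the TET_KO flank count to 12, leaving out replicate 3 of D1 took that of TET_WT to 9, and the DNMT_WT gene call was lost without replicate 1 of D0, replicate 1 of D1 or replicate 2 of D1. Between D2 and D1, 1 gene and 28 flank windows were called higher on D2 in TET_KO, where 65.8% of all windows were. In DNMT_WT 3 gene and 48 flank windows were, where 94.9% were, and in TET_WT 2 gene and 43 flank windows were, where 88.0% were. No member window was called lower on the later day in any of these steps. The median difference of D2 from D1 in TET_WT was 0.28 points over the gene windows, 14.53 over the flank windows and 20.36 over all windows. In DNMT_WT it was 0.77, 21.38 and 39.21 points. The library medians shifted by 12.8 points in TET_KO, 40.5 in DNMT_WT and 22.4 in TET_WT at this step, and relative to them the gene windows were lower on D2 in 22, 27 and 26 calls. For gene windows near 0% on both days these calls follow from the subtracted shift.

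In TET_WT on D2 against D1, 2 of 5 gene means were higher at any size, where 99.1% of all genes were, and 0 passed 10 points, where 90.8% did. Otx2 had 11.5, 11.8 and 10.2% on D2 against 7.26, 7.13 and 7.59% on D1, a difference of 3.82 ± 0.55 points (SE, limma adjusted p = 4.4e-07). Sox1 differed by 1.99 ± 0.34 points (limma adjusted p = 5.3e-06), and by 5.66 with means weighted by overlapping bases. Pou3f1, Sox3 and Sox2 differed by 0.68, 0.15 and 0.06 points, none past the threshold. Relative to the library medians all 5 stood lower on D2, with differences of -18.57 to -22.33 points. Their flank means were all called higher, where 96.3% of all genes were, by 11.19 points for Sox2 to 18.83 for Pou3f1, or -11.20 and -3.57 relative to the library medians. With 10 kb flanks the Sox2 value was 9.86.

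The wild-type lines differed more on D0 and D1 than on D2. On D0, 1 gene and 32 flank windows were called lower in DNMT_WT than in TET_WT, where 88.9% of all windows were. With libraries centred on their medians the direction turned, with 27 gene and 38 flank windows called higher and 3 flank windows lower. On D1, 1 gene and 28 flank windows were lower, where 85.6% were, and 1 gene window, that of the Sox3 end, was higher, where 0.0126% were. Centred in this way, 27 gene and 40 flank windows were called higher on D1 and 0 lower. On D2, 1 gene window (the Otx2 window named above) and 8 flank windows were lower, where 10.5% of all windows were, and 1 gene and 1 flank window, both of Sox3, were higher, where 1.78% were. The 8 flank windows were 5 of Pou3f1, 2 of Otx2 and 1 of Sox2. The median difference on D2 was 0.15 points over the gene windows, 0.48 over the flank windows and -2.74 over all windows.

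As gene means on D2, Sox3 alone was called higher in DNMT_WT, where 0.999% of all genes were. It had 14.3, 11.7 and 12.7% in DNMT_WT against 1.00, 0.391 and 0.625% in TET_WT, with no overlap and a difference of 12.22 ± 0.63 points (SE, limma adjusted p = 3.0e-12). Most of it came from the end window, 1 of the 4 windows averaged. Otx2 differed by -1.51 ± 0.55 points (limma adjusted p = 0.029), which turned to 1.46 relative to the library medians and was -4.35 with means weighted by overlapping bases. On a logit scale the Otx2 difference missed the threshold (limma adjusted p = 0.103). Pou3f1 differed by 0.23 ± 0.79 points (limma adjusted p = 0.84), but by -1.50 without replicate 1 of DNMT_WT (limma adjusted p = 0.0033) and -1.88 with weighted means.

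The gain between D0 and D2 was compared between genotypes as a difference of differences. Against TET_WT, the TET_KO gain was called lower in 22 flank windows (16 on a logit scale), where 44.2% of all windows were, and higher in 1 gene window, where 2.5% were. After centring on the library medians it was called higher in 9 gene and 13 flank windows and lower in 4 flank windows. The gene window called higher as deposited was the Sox3 end, with a gain larger by 15.61 ± 2.68 points (SE, limma adjusted p = 2.5e-05), a call that was lost on a logit scale (limma adjusted p = 0.516). Relative to the library medians its gain was larger by 25.25 points (limma adjusted p = 1.2e-07). The DNMT_WT gain was called larger in 1 gene and 29 flank windows, where 82.7% of all windows were, and the gene window was again the Sox3 end, by 44.92 ± 2.68 points (limma adjusted p = 3.5e-12). Leaving out 1 library gave 1 to 4 gene windows, 4 of them without replicate 2 of DNMT_WT on D2, and relative to the library medians 26 gene and 39 flank windows had a smaller DNMT_WT gain and 1 and 5 a larger one. As gene means, Sox3 alone was called as deposited, with a DNMT_WT gain larger by 11.63 ± 0.90 points (limma adjusted p = 2.2e-11), where 85.4% of all genes were, but -8.29 points relative to the library medians. The TET_KO gains of the gene means were not called as deposited, but those of Sox3 and Sox2 were relative to the library medians, at 13.87 and 10.05 points (limma adjusted p = 6.5e-07 and 1.3e-05). The Sox2 value is mostly the subtracted shift of -9.64 points, since as deposited its gain differed by 0.41 points (limma adjusted p = 0.25). The Sox3 value, 4.23 points as deposited, also holds that shift. The flank means of 4 members, all but Sox2, had a larger DNMT_WT gain, where 93.8% of all genes did, by 11.66 ± 1.68 points for Pou3f1 to 19.33 ± 1.68 for Sox3, all smaller than the shift of 19.9 points in library medians. With 10 kb flanks the Otx2 and Sox1 values fell under 10 points, to 7.67 and 9.38. The flank mean of Pou3f1 alone had a called smaller gain in TET_KO, by 11.27 points (difference -11.27 ± 1.68, limma adjusted p = 3.5e-07), where 43.6% of all genes did, against a shift of -9.64 points. It was -9.96 points with 10 kb flanks, -9.94 without replicate 2 of TET_WT on D2 and -1.63 relative to the library medians (limma adjusted p = 0.15).

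The gap between a gene and its own flanks does not move when all windows of a library shift by 1 amount. A gene that stays near 0% does not shift, so there the gap widens as the flanks rise and repeats their rise. In TET_KO all 5 genes were called lower than their flanks on D0, D1 and D2, where 19.7, 21.6 and 20.4% of all genes were. In DNMT_WT 0, 2 and 5 were, where 0.278, 5.38 and 20% of all genes were, with Otx2 and Pou3f1 the 2 on D1. In TET_WT 4, 5 and 5 were, all but Sox2 on D0, where 14.5, 18.4 and 22.2% of all genes were. The gap was widest for Pou3f1, at -45.1, -52.0 and -59.5 points (D0, D1 and D2) in TET_KO, -2.20, -14.2 and -38.4 in DNMT_WT and -20.2, -27.3 and -45.4 in TET_WT. With 10 kb flanks the gap fell under 10 points for Otx2 in DNMT_WT on D1 (-5.35) and in TET_WT on D0 and D1 (-6.37 and -9.25), for Sox1 in TET_WT on D0 and D1 (-6.76 and -9.19) and for Sox2 in TET_WT on D1 (-7.45). Sox2 had the narrowest gap in TET_WT, at -6.72, -11.5 and -22.6 points.

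The gap was wider in TET_KO than in TET_WT. On D0 all 5 genes were called lower by this measure, where 8.36% of all genes were, with differences of -24.90 ± 1.25 points for Pou3f1, -21.19 ± 1.21 for Sox3, -17.32 ± 0.90 for Sox2, -16.52 ± 0.72 for Sox1 and -11.08 ± 0.71 for Otx2 (SE, limma), the last of which was -5.83 with 10 kb flanks. On D1 all but Otx2 were called, where 7.99% of all genes were, and on D2 the same 4, where 3.88% were. On D2 the differences were -14.14 points for Pou3f1, -13.92 for Sox3, -12.49 for Sox2, -12.07 for Sox1 and -3.08 for Otx2. The median over all genes was 0.12 points on D0. The gap of a gene near 0% in both groups follows its flanks. For Sox2 on D0 the gene mean differed by 0.01 points and the flank mean by 17.33. The gap also widened between D1 and D2, with 5 of 5 called in DNMT_WT, where 11.6% of all genes were, and 5 of 5 in TET_WT, where 5.0% were. In TET_WT the step was -18.14 points for Pou3f1, -15.69 for Sox3, -11.38 for Otx2, -11.13 for Sox2 and -11.00 for Sox1. With 10 kb flanks the TET_WT calls of Otx2, Sox1 and Sox2 were lost, at -7.39, -8.37 and -9.80 points, as was the DNMT_WT call of Otx2, at -9.73. In TET_KO the same step was between -4.54 and -7.59 points and was not called. The widening over both days was smaller in TET_KO than in TET_WT for Pou3f1, by 10.77 ± 1.76 points (limma adjusted p = 9.0e-05), where 3.32% of all genes were called so. It was 9.45 points with 10 kb flanks and 9.37 without replicate 2 of TET_WT on D2. It was larger in DNMT_WT for Pou3f1 and Sox1, with differences of -11.02 ± 1.76 and -10.99 ± 1.02 points (limma adjusted p = 3.1e-05 and 2.3e-08), where 7.32% of all genes were. The Pou3f1 value was -9.71 without replicate 3 of DNMT_WT on D2, and the Sox1 value -8.05 with 10 kb flanks.

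The unbroken run of windows under 10% that crosses each gene was no longer on a later day than on an earlier one by group means, and no longer in TET_KO than in TET_WT on the same day. For Otx2 it spanned 5.175 kb in all 9 TET_KO libraries, while by group means it spanned 25.6 kb on D1 and 5.175 kb on D2 in DNMT_WT, and 15.0, 9.12 and 6.73 kb on D0, D1 and D2 in TET_WT. For Sox2 it spanned 8.64, 8.64 and 5.59 kb in TET_KO, against 12.3 and 8.64 kb in TET_WT on D1 and D2. On D0 the runs of all 5 genes in DNMT_WT, and that of Sox2 in TET_WT, reached an edge of the examined region, so their true ends lie outside it. For Sox1 it was 2.84 kb in TET_KO on all days, against 13.2, 8.04 and 2.84 kb in TET_WT. For Sox3 it was 3.42 kb in TET_KO, against 9.07, 7.12 and 4.56 kb in TET_WT. For Pou3f1 it was 2.50 kb in every TET_KO library, while the TET_WT libraries of D2 had 4.30, 2.50 and 4.30 kb. Runs end where windows end, so these lengths move in steps of a window, and the limit of 10% was one choice among several that move them. With a limit of 5%, 27 runs were marked as moved and 18 as the same, and with 20%, 26 and 19. At 5% the Sox1 run was 2.84 kb and the Pou3f1 run 2.50 kb by group means in TET_KO and TET_WT on all days. The Otx2 run in TET_KO was then longer on D1, at 2.88 kb, than on D0, at 1.87 kb.

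**Figure D4:**
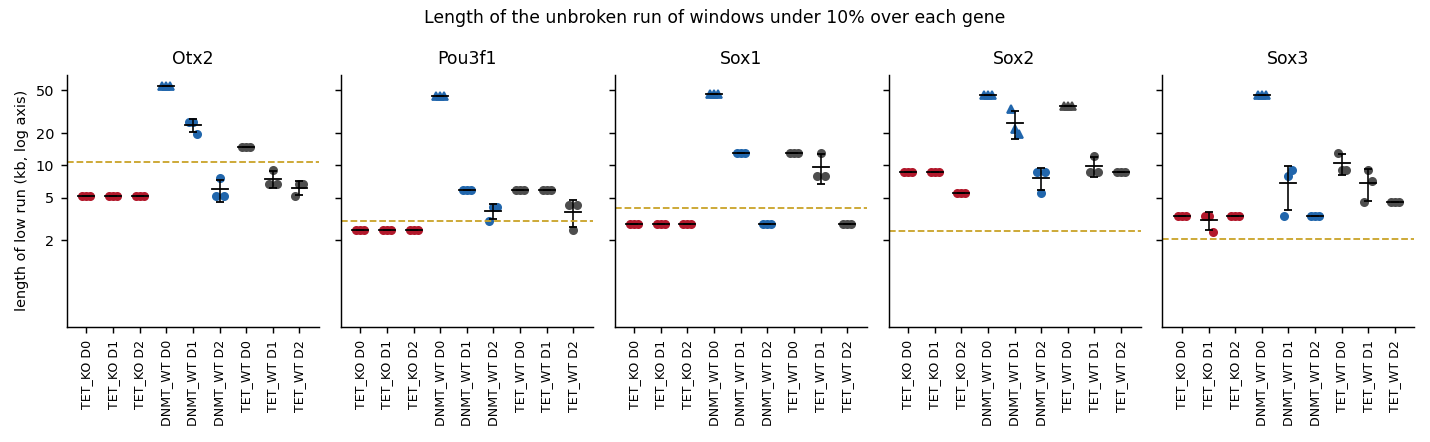
Length (kb, log axis) of the unbroken run of windows under 10% methylation across each gene, for each library by genotype and day, with triangles where the run meets the edge of the region and a dashed line at the length of the gene. TET_KO has the same or shorter runs than TET_WT, such as 5.175 against 15.0 kb for Otx2 on D0 by group means.

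Low levels went with short, CpG-dense windows. The 20 gene windows under 1 kb had a median of 0.576% in TET_KO and 0.173% in TET_WT on D0, and the 9 flank windows under 1 kb had 1.30 and 0.281%. The 7 gene windows of 1 to 3 kb had medians of 18.8 and 3.22%, and the 28 flank windows of that length 27.1 and 5.51%. Windows of 1 to 3 kb over the whole table had 55.5 and 20.4%, so the member windows of that length lay below them. Those under 1 kb over the whole table, 16219 in number, had 0.505 and 0.222%, close to the gene windows. Over the 96 tested windows, length and level had a Spearman correlation of 0.782 to 0.905 in the 9 groups. The windows come from the same libraries and neighbouring windows share their surroundings, so this is a description. The part of window length in the gene and flank contrast was not tested.

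**Figure D5:**
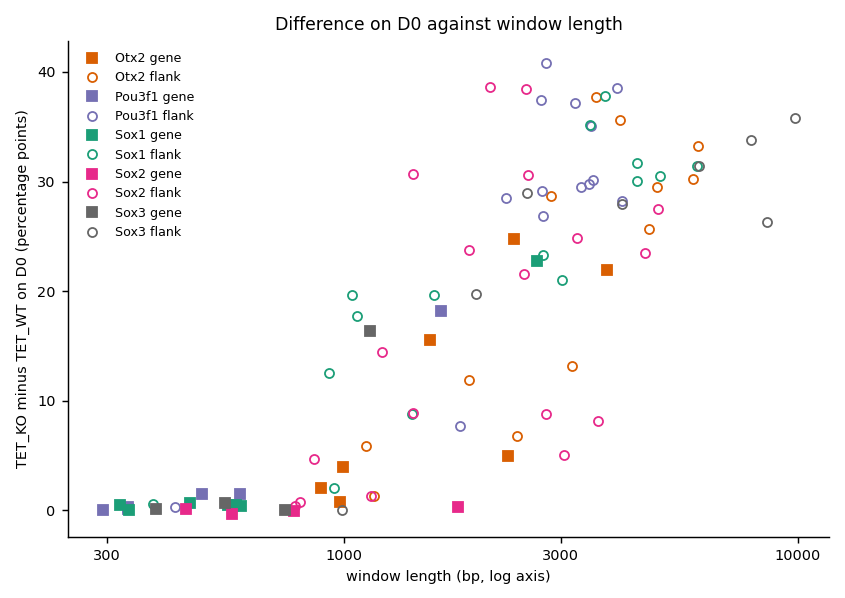
Difference in methylation between TET_KO and TET_WT on D0 (percentage points) against window length (bp, log axis) for the tested windows, with gene windows as filled squares and flank windows as open circles. Windows under 1 kb lie between -0.34 and 4.67 points but for 1 Sox1 flank window at 12.55, and the largest difference is 40.79 points.

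Lists of related genes had larger median differences than the members, with no test of that difference. Of 17 regulators of the formative and primed states, 12 had a gene mean called higher in TET_KO than in TET_WT on D0, with a median difference of 18.25 points, against 1 of 5 members with 3.62, and against 96.1% of all genes with a median of 26.27. Among them Tcf7l1, a repressor of Wnt targets, had 50.9% in TET_KO and 19.0% in TET_WT, a difference of 31.96 points. Foxd3 and Utf1, both genes of pluripotent cells, had 0.578 and 0.616% in TET_KO and 0.293 and 0.183% in TET_WT, and did not pass the test. Of 20 relatives of the Otx, Pou3 and Sox families, 11 were called higher, with a median of 11.27 points. The photoreceptor factor Crx, an Otx relative, differed most, with 58.2% in TET_KO and 24.6% in TET_WT, and Sox21 least, by 3.41 points. Of 20 neural genes, 12 were called higher, with a median of 11.51 points, led by the fatty acid binding protein gene Fabp7 with 46.1% in TET_KO and 14.6% in TET_WT. The called share of each list was below that of all genes, and the medians of all 3 lists lay below the shift of 30.4 points in library medians.

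On D2 the same lists had 12 of 17, 12 of 20 and 7 of 20 called higher in TET_KO, with median differences of 12.75, 12.31 and 8.65 points, against 87.5% of all genes called and a median of 16.46. In TET_WT on D2 against D1, 10 of 17, 8 of 20 and 2 of 20 were called higher, with medians of 10.55, 6.77 and 5.84 points against 0.68 over the members, and against 90.8% of all genes called and a median of 19.41. The 2 neural genes were Hesx1, a homeodomain repressor of the forebrain, with a difference of 23.86 points, and Fabp7 with 15.16. Between DNMT_WT and TET_WT on D2 the lists had 0 of 17, 1 of 20 and 0 of 20 called higher, against 0.999% of all genes. The 1 was Sox15, a Sox family relative, with 25.4% in DNMT_WT and 12.6% in TET_WT, a difference of 12.86 ± 1.29 points (SE, limma adjusted p = 5.8e-08). Sox15 had 25.7% in TET_KO on D2. These lists and the 5 members were chosen with earlier results of these data known.

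The genes whose group means were most like those of a member were found by root mean square distance over the 9 groups. For Sox2 they were the tRNA genes n-TPcgg3 and n-TDgtc9, which share 1 window, at 0.0886 points, and Ier5l at 0.119. For Sox1 they were Gm51903, Mafa and Jund at 0.326, 0.348 and 0.384 points, and for Pou3f1 Gm35631, Nkx6-1 and Foxd1 at 0.345, 0.525 and 0.530. Otx2 and Sox3 had fewer like genes. Zcchc3, Gdf7 and Snai2 lay 1.23, 1.29 and 1.34 points from Otx2, and Gm26688, Mir196b and n-TTagt5 lay 1.42, 1.54 and 1.77 from Sox3. Within 1 point stood 187 genes for Sox2, 62 for Sox1 and 36 for Pou3f1, and 0 for Otx2 and Sox3.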

How the data were processed

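Per the labels, DNA was sheared, given methylated adapters, bisulfite converted and amplified. Per the submitters' processing notes, Trim Galore 0.6.6, cutadapt 2.3, Bismark 0.23.0 and GRCm38 were used. The authors deposited a methylation percent (0 to 100) per window and library. How windows were filled, and any coverage filter, is not given in the sources used here. The table holds no counts, so the depth is unknown and no binomial interval is given.

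Values were used as deposited for the 444250 windows with a value in all 27 libraries. Gene and flank means average the windows overlapping a gene, and those within 20 kb of it, for 48637 of 49997 RefSeq genes. Groups were fitted with limma 3.58.1 (lmFit, eBayes with trend, R 4.3.3), a mean for each of 9 groups and 18 residual degrees of freedom, and Benjamini-Hochberg adjustment within each contrast over all windows or genes. A call needs an adjusted p under 0.05 and 10 points. The gain is D2 minus D0, compared between genotypes as an interaction. The fit was tested on simulated data. At most 0.0113% of values were identical between any libraries. Other steps ran in Python 3.11.15 with matplotlib 3.10.9, numpy 2.4.6, scipy 1.17.1 and pandas 2.3.3.

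The text names the members, up to 3 called genes with the largest and 2 with the smallest difference per list and contrast, and the 3 genes most like each member. Members, lists and rules were chosen with earlier results of these data known. The limits for low runs and for the Sox3 end window were chosen after seeing the data. Alternatives were other minimum differences, windows assigned by midpoint, 10 kb flanks, means weighted by overlap, a logit scale, centring on library medians, no trend, a replicate block, only the groups of a contrast, and leaving out each library.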

Additional observations from a re-analysis of the deposited data

Results flagged for a closer look

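Each result here is a gain between D0 and D2 that differed between genotypes, by the limma interaction test over all windows or genes with Benjamini-Hochberg adjustment. Points are percentage points of methylation as deposited, over 3 libraries per group, and no explanation was tested.

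The Sox3 window at the lower-coordinate end of the gene gained more than in TET_WT in both other genotypes, by 44.92 points in DNMT_WT and by 15.61 in TET_KO, the second of which was lost on a logit scale (limma adjusted p = 0.516). The D2 libraries had 28.5 to 37.1% in TET_KO, 42.6 to 52.7% in DNMT_WT and 0.344 to 2.50% in TET_WT. The Sox3 gene mean, which holds that window, gained 11.63 points more in DNMT_WT than in TET_WT as deposited, but -8.29 relative to the library medians.

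The flank means of 4 genes gained more in DNMT_WT than in TET_WT, Sox3 by 19.33 points, Otx2 by 13.06, Sox1 by 12.32 and Pou3f1 by 11.66. The Pou3f1 flank gained less in TET_KO than in TET_WT, with a difference of -11.27 points. The difference in gain of the library medians was -9.64 points for TET_KO and 19.9 for DNMT_WT.

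The gap between gene and flank moved with the flanks. For Pou3f1 its change over the days differed from that of TET_WT by 10.77 points in TET_KO, a smaller widening, and by -11.02 points in DNMT_WT, a larger one. For Sox1 the difference in DNMT_WT was -10.99 points.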

How the results depend on the processing

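Library medians moved by 2.97 to 40.5 points between the groups compared, and centring each library on its median turned most directions. Where windows or genes lie near 0% in both groups, the turned values restate the shift. Called gene and flank windows then numbered 25 and 27 between TET_KO and TET_WT on D0, 25 and 28 on D1 and 23 and 25 on D2, mostly lower in TET_KO. They numbered 27 and 41 between DNMT_WT and TET_WT on D0 and 27 and 40 on D1, mostly higher. For D2 against D1 they numbered 22 and 13 in TET_KO, 27 and 42 in DNMT_WT and 26 and 33 in TET_WT, mostly lower. For D1 against D0 they were 12 and 14 in DNMT_WT, with 1 flank window in TET_KO and 0 in TET_WT. For the gains they were 9 and 17 in TET_KO, mostly higher, and 27 and 44 in DNMT_WT, mostly lower, so that both turned. In points, in the order Otx2, Pou3f1, Sox1, Sox2 and Sox3, the gene means became -19.81, -26.77, -26.75, -30.36 and -26.09 for TET_KO against TET_WT on D0, and -11.34, -17.64, -18.05, -20.31 and -12.21 on D2. For TET_WT on D2 against D1 they became -18.57, -21.71, -20.40, -22.33 and -22.24, and for the DNMT_WT gain -16.68, -19.28, -18.59, -19.42 and -8.29. The TET_KO gain became 8.48, 9.14, 8.71, 10.05 and 13.87, the last 2 now called, and the Otx2 difference of DNMT_WT on D2 1.46. The subtracted shift of -9.64 points made up most of each TET_KO gain value, and as deposited the Sox2 gain differed by 0.41 points. The flank means became -8.73, -1.87, -10.24, -13.05 and -4.89 on D0, -8.26, -3.50, -5.97 and -7.82 on D2 (1.70 for Sox3), and -7.19, -3.57, -9.40, -11.20 and -6.55 for TET_WT on D2 against D1. Their DNMT_WT gains became -6.85, -8.26, -7.60, -14.03 and -0.59, and their TET_KO gains 0.48 for Otx2, 4.27 for Sox1, 5.23 for Sox2, 6.60 for Sox3 and -1.63 for Pou3f1, and the Sox2 flank differed by 2.86 between DNMT_WT and TET_WT on D2. Among single windows, TET_KO minus TET_WT became -8.44, -5.66 and -14.80 on D0 and -3.94 and -7.19 (lower and outermost window) on D2 for Otx2, -12.19 and -6.20 for Pou3f1, -7.60 and -4.40 for Sox1, and -14.05 on D0 for Sox3. TET_WT on D2 against D1 became -9.41 for Otx2 and -9.45 for Sox1. The largest flank differences fell to 5.39 to 8.29 for all genes but Pou3f1 (10.42).

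A minimum of 20 points left 3 gene windows for TET_KO against TET_WT on D0 and 2 with 20 flank windows on D2. It left 1 gene and 16 flank windows for DNMT_WT against TET_WT on D1 and 1 and 1, now higher, on D2. Of the day steps it left 25 flank windows in TET_WT on D2 and 6 in DNMT_WT on D1, with 0 gene windows in these steps. In DNMT_WT on D2 it left 2 gene and 39 flank windows, and in TET_WT on D1 and in both steps of TET_KO 0 of either. Of the gains it left 4 flank and 0 gene windows for TET_KO, and 17 flank windows and 1 gene window for DNMT_WT. Without a minimum, gene windows numbered 11, 10 and 12 for TET_KO on the 3 days and 4, 6 and 11 for DNMT_WT against TET_WT, with 43 and 27 flank windows on D1 and D2. The day steps had 2 and 43, then 10 and 60 in TET_KO, 6 and 47, then 10 gene windows in DNMT_WT, and 2 and 38, then 7 gene windows in TET_WT. The gains had 2 and 34 in TET_KO and 8 and 46 in DNMT_WT. Flanks of 10 kb held fewer windows, so called ones numbered 28, 28 and 26 for TET_KO and 13, 10 and 3 for DNMT_WT against TET_WT, 2 and 14, 10 and 28, and 4 and 23 for the day steps of TET_KO, DNMT_WT and TET_WT, and 7 and 14 for the gains. Under 10 points then fell the flank gains of Otx2 (7.67) and Sox1 (9.38) in DNMT_WT and of Pou3f1 (-9.96) in TET_KO, and the Sox2 flank of TET_WT on D2 against D1 (9.86). So did the gene minus flank values of Otx2 for TET_KO on D0 (-5.83), for D2 against D1 in TET_WT (-7.39) and DNMT_WT (-9.73) and for DNMT_WT on D0 (5.99), of Pou3f1 for DNMT_WT on D1 against D0 (-9.88) and the TET_KO gain (9.45), of Sox1 for TET_WT on D2 against D1 (-8.37) and the DNMT_WT gain (-8.05), and of Sox2 for TET_WT on D2 against D1 (-9.80). The levels of that measure were -5.35 for Otx2 in DNMT_WT on D1, -6.37 and -9.25 in TET_WT on D0 and D1, -6.76 and -9.19 for Sox1 and -7.45 for Sox2 on D1. Assigning windows by midpoint put the Sox3 end window into the flank, and gene windows then numbered 1 for DNMT_WT against TET_WT on D1 and on D2 and 0 for both gains, for DNMT_WT on D1 and for TET_KO on D2. They numbered 4 for TET_KO against TET_WT on each of D0, D1 and D2, and 2 for DNMT_WT on D2 against D1. On a logit scale the TET_KO gain of that window missed the threshold (limma adjusted p = 0.516), leaving 0 gene windows and 16 flank windows for this gain. The Otx2 gene mean of DNMT_WT against TET_WT on D2 also missed it on that scale (limma adjusted p = 0.103). So did the Sox1 gene and flank means of that comparison (limma adjusted p = 0.099 and 0.105) and the Sox3 gene mean of the TET_KO gain (limma adjusted p = 0.25). The TET_KO gains of the Otx2 and Sox1 gene means and the Sox3 flank mean passed it there (limma adjusted p = 0.0013, 5.3e-04 and 2.9e-04), as did some Sox2 gene means. As deposited all of these lay under 10 points. Weighting by overlapping bases turned the Pou3f1 difference of DNMT_WT on D2 to -1.88 and took Otx2 for TET_KO on D2 to 11.62 and Sox1 on D0 to 10.03. It moved the Otx2 difference of DNMT_WT on D2 to -4.35, Pou3f1 for TET_KO to 7.07 and 5.90 on D0 and D2, and Sox1 to 7.26 for TET_KO on D2 and 5.66 for TET_WT on D2 against D1.

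Leaving out 1 library gave 6 to 12 flank windows for TET_KO on D1 (12 without replicate 3 of D0 or replicate 2 of D1) and 9 to 21 for TET_WT on D1 (9 without replicate 3 of D1). It gave 0 to 1 gene windows for DNMT_WT on D1 and 1 to 4 for its gain (4 without replicate 2 of D2). The Pou3f1 gene mean ranged from -1.50 to 1.13 between DNMT_WT and TET_WT on D2 and from -1.09 to 1.54 for the gain, negative without replicate 1 of DNMT_WT on D2. Its flank gain in TET_KO was -9.94 and its gene minus flank gain 9.37 without replicate 2 of TET_WT on D2, and that of DNMT_WT was -9.71 without replicate 3 of D2. Same-numbered libraries deviated from their group means with correlations of -0.0549 to 0.0570 over 108 pairs, so no pairing by number was seen across windows. A shift shared by whole libraries of 1 number would not show in these correlations. With a replicate block no result was marked as changed, and the count of flank windows for TET_KO on D0 stayed at 50. Nor was any when dropping the trend or fitting only the groups of a contrast. Counts of called windows could move somewhat without being marked, so single calls may differ. The cause of these changes was not tested where the alternative's own construction does not show it.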
